A study of Mus musculus with 18 samples.

Results

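The genes followed here encode β-adrenergic receptors and the proteins that act next to them at the plasma membrane. They were taken by gene symbol from the deposited count table and comprised 8 of its 54347 genes. Adrb1 and Adrb3 encode receptors, Gnas the stimulatory G protein α subunit, Adcy3 and Adcy6 adenylyl cyclases, Arrb1 and Arrb2 the β-arrestins, and Rgs2 a regulator of G protein signalling. All 8 passed the filter on low counts and were among the 14949 genes tested.

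The study asked whether depleting Gm15551, a long non-coding RNA, changes mature brown adipocytes at rest and after β-adrenergic activation. RNA was sequenced from wt1-SAM cells, an immortalised mouse brown preadipocyte line that stably carries the SAM machinery for CRISPR activation and was differentiated in culture. Late in differentiation the cells received 1.4 µl of an LNA gapmer, a modified antisense oligonucleotide that directs cleavage of the RNA it pairs with. The 6 groups of 3 libraries combined the non-targeting ctrlA, LNA1 or LNA2 with no stimulation or with 1 µM isoproterenol, a non-selective β-adrenergic agonist, for 24 h before harvest. Every group therefore shared the cell line, the SAM machinery and a transfection, and no group was left without an LNA. The replicate numbers were 2, 3 and 4 in each group. Whether they mark separate cultures was not stated, so the p-values measure the spread between these libraries.

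In brown adipocytes noradrenaline from sympathetic nerves binds β-adrenergic receptors, which switch on the stimulatory G protein and through it the adenylyl cyclases that make cyclic AMP. Cyclic AMP in turn drives lipolysis and the expression of thermogenic genes. Receptor kinases and β-arrestins damp the signal by uncoupling and internalising activated receptors. RGS proteins as a family speed the inactivation of Gα subunits, and whether Rgs2 acts on the stimulatory subunit was not examined here.

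Library totals ranged from 9167560 to 19723021 counts. The sequences of the 3 LNAs are given in lower case, 5′ to 3′, because they define the groups compared, and no part of them is capitalised.

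ctrlA: aacacgtctatacgc
LNA1: gatgactgagattaga
LNA2: aagtagcacggcgttg

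LNA1 and LNA2 were complementary to the annotated Gm15551 transcript over all 16 of their bases. In the annotated transcripts of the 8 genes, the longest run complementary to any of the 3 LNAs was 9 bases, for LNA1 in Arrb1. Gm15551 itself had 2 to 14 counts in the ctrlA libraries, 1 to 12 with LNA1 and 1 to 13 with LNA2, so these ranges overlapped. It did not pass the filter and was not tested, and the labels of the LNAs could not be checked against their target at this depth. Ucp1, the uncoupling protein of brown fat, served as the check of stimulation and rose from 1.12 ± 0.346 CPM in the 9 unstimulated to 12.9 ± 2.25 CPM in the 9 stimulated libraries (mean ± SD). The fitted log2 fold change was 3.51 (edgeR, adjusted p = 1.12e-08). CPM are counts scaled to a common library size by the TMM factors.

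The cells carried adipocyte genes. The summed level of 6 adipocyte markers lay between 9586 and 23247 CPM, 5 of 6 brown adipocyte markers had a mean of at least 1 CPM, and 3 muscle markers together reached at most 0.307 CPM. Several sums moved with the conditions. The adipocyte sum was 13170 to 23247 CPM without and 9586 to 17237 CPM with isoproterenol, 7 preadipocyte or fibroblast markers summed to 111 to 247 and 148 to 329 CPM, and 4 macrophage markers, of which 1 had a mean of at least 1 CPM, to 8.17 to 28.4 and 11.97 to 44.3 CPM. Between replicate numbers, the preadipocyte sum was 111 to 192 CPM in replicate 2 and 176 to 329 CPM in replicates 3 and 4, and the adipocyte sum was 14359 to 23247 CPM and 9586 to 15984 CPM. Between LNAs, the macrophage sum was 8.17 to 24.7 CPM with ctrlA (median 12.3), 11.5 to 30.1 CPM with LNA1 (17.1) and 14.0 to 44.3 CPM with LNA2 (27.2), and the sum of 6 brown adipocyte markers was 338 to 547 CPM (median 461), 255 to 444 CPM (352) and 262 to 421 CPM (365). The part of cell composition in the results that follow was not tested. In bulk RNA, fewer cells of a type and less RNA per cell cannot be told apart.

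Gnas was the most abundant of the 8 genes and the receptors Adrb1 and Adrb3 the least. Divided by the length of the merged exons, the mean levels over 18 libraries were 66.8 ± 11.0 CPM per kb for Gnas, 36.8 ± 13.2 for Adcy6, 13.6 ± 3.29 for Arrb1, 7.29 ± 1.58 for Arrb2, 1.84 ± 1.48 for Adcy3, 1.31 ± 1.29 for Rgs2, 0.277 ± 0.0953 for Adrb1 and 0.196 ± 0.135 for Adrb3. In this order Adcy3 and Rgs2, and likewise Adrb1 and Adrb3, differed by less than their spread over the libraries. Messenger levels per length do not give receptor numbers at the membrane.

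**Figure D1:**
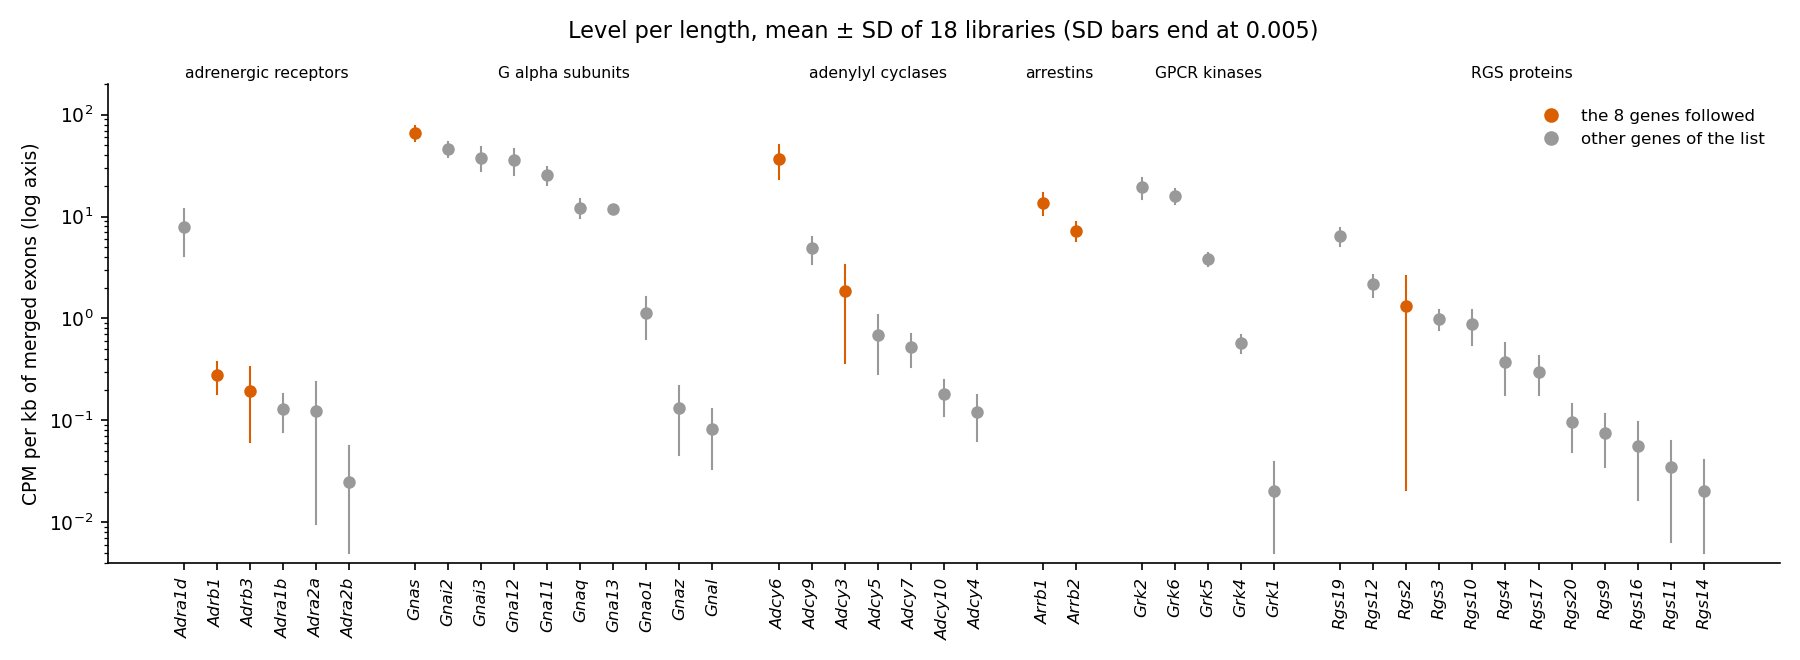
Level of the 8 genes (orange) and of genes from the same families, with α receptors beside the β receptors, at over 0.02 CPM per kb (grey), as CPM per kb of merged exons on a log axis; points are means and lines the SD of 18 libraries. Gnas leads the Gα subunits and Adcy6 the cyclases, while Adrb1 and Adrb3 lie below 0.3 CPM per kb.

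Isoproterenol addresses whether the receptor system itself is regulated by its agonist. Averaged over the 3 LNAs (9 libraries against 9), Adcy3 was the only one of the 8 genes called, that is, with an adjusted p below 0.05 and an absolute log2 fold change above 0.5. It rose about 4-fold. Of all genes tested, 3.2% were called in this comparison and 2.02% were called as higher. With the replicate number as a block, Rgs2 was called as higher too, against 7.0% of all genes. This block is used below because libraries of the same number deviated together, those of replicate 2 most. The changes of Arrb1, Gnas and Adcy6 were smaller than the fold limit in both fits.

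Adcy3 (ENSMUSG00000020654.15, chromosome 12, 4133103 to 4213525 on the plus strand of GRCm38) encodes a membrane adenylyl cyclase. In unstimulated cells its level was 2.44, 5.70 and 4.65 CPM with ctrlA in replicates 2, 3 and 4. It was 3.82, 2.84 and 6.001 CPM with LNA1 and 2.64, 5.46 and 4.69 CPM with LNA2. The 9 unstimulated libraries thus held 32 to 79 counts each and did not order by LNA. After isoproterenol the levels were 9.73, 26.5 and 24.7 CPM with ctrlA. They were 10.7, 23.9 and 16.9 CPM with LNA1 and 10.1, 30.2 and 16.4 CPM with LNA2. Every stimulated library lay above every unstimulated one, where 1.18% of all genes had no overlap in either direction, and replicate 2 gave the lowest stimulated value with each LNA. Paired by LNA and replicate number, Adcy3 was higher in 9 of 9 pairs, by 2.81-fold to 8.41-fold with a median of 3.99-fold. The fitted log2 fold change was 2.14 ± 0.29 (SE; 95% interval 1.53 to 2.76; edgeR, adjusted p = 0.000331). It stayed called when any 1 of the 18 libraries was left out, with a highest adjusted p of 0.00137. Taken by LNA (3 against 3), the arms did not overlap for Adcy3 with ctrlA and with LNA1, against 10.2% and 11.0% of all genes, and for Adcy3 and Arrb1 with LNA2, against 8.38%.

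Within each LNA (3 against 3) the estimates for Adcy3 were 2.26 ± 0.50 for ctrlA, 2.03 ± 0.50 for LNA1 and 2.14 ± 0.50 for LNA2 on the log2 scale. Their adjusted p were 0.0699, 0.0967 and 0.102 (edgeR), so that 0 of the 8 genes were called in any single LNA. Without stimulated ctrlA replicate 2 the adjusted p for ctrlA was 0.0382. Adcy3 alone had an unadjusted p below 0.05 in these comparisons, and DESeq2 called 1 member in each. The share of all genes called was 0.488% for ctrlA, 0.702% for LNA1 and 0.395% for LNA2. In the blocked fit Adcy3 was called in all 3, at 2.22 (adjusted p = 3.1e-05), 1.97 (0.000123) and 2.11 (7.3e-05), where 4.03%, 5.04% and 4.25% of all genes were called. The responses with LNA1 and LNA2 differed from that with ctrlA by -0.23 (95% interval -1.69 to 1.24) and -0.12 (-1.57 to 1.34), and neither difference passed the test (edgeR, adjusted p = 1.00 for each).

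The exons of Adcy3 overlap those of Cenpo, a centromere protein gene on the opposite strand, over 1380 bases. Since the use of strand in counting was not stated, reads of the pair could be mixed. Cenpo was at 10.9 ± 1.67 CPM without and 10.2 ± 1.57 CPM with isoproterenol (log2 fold change -0.10 ± 0.11, edgeR, adjusted p = 0.835).

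**Figure D2:**
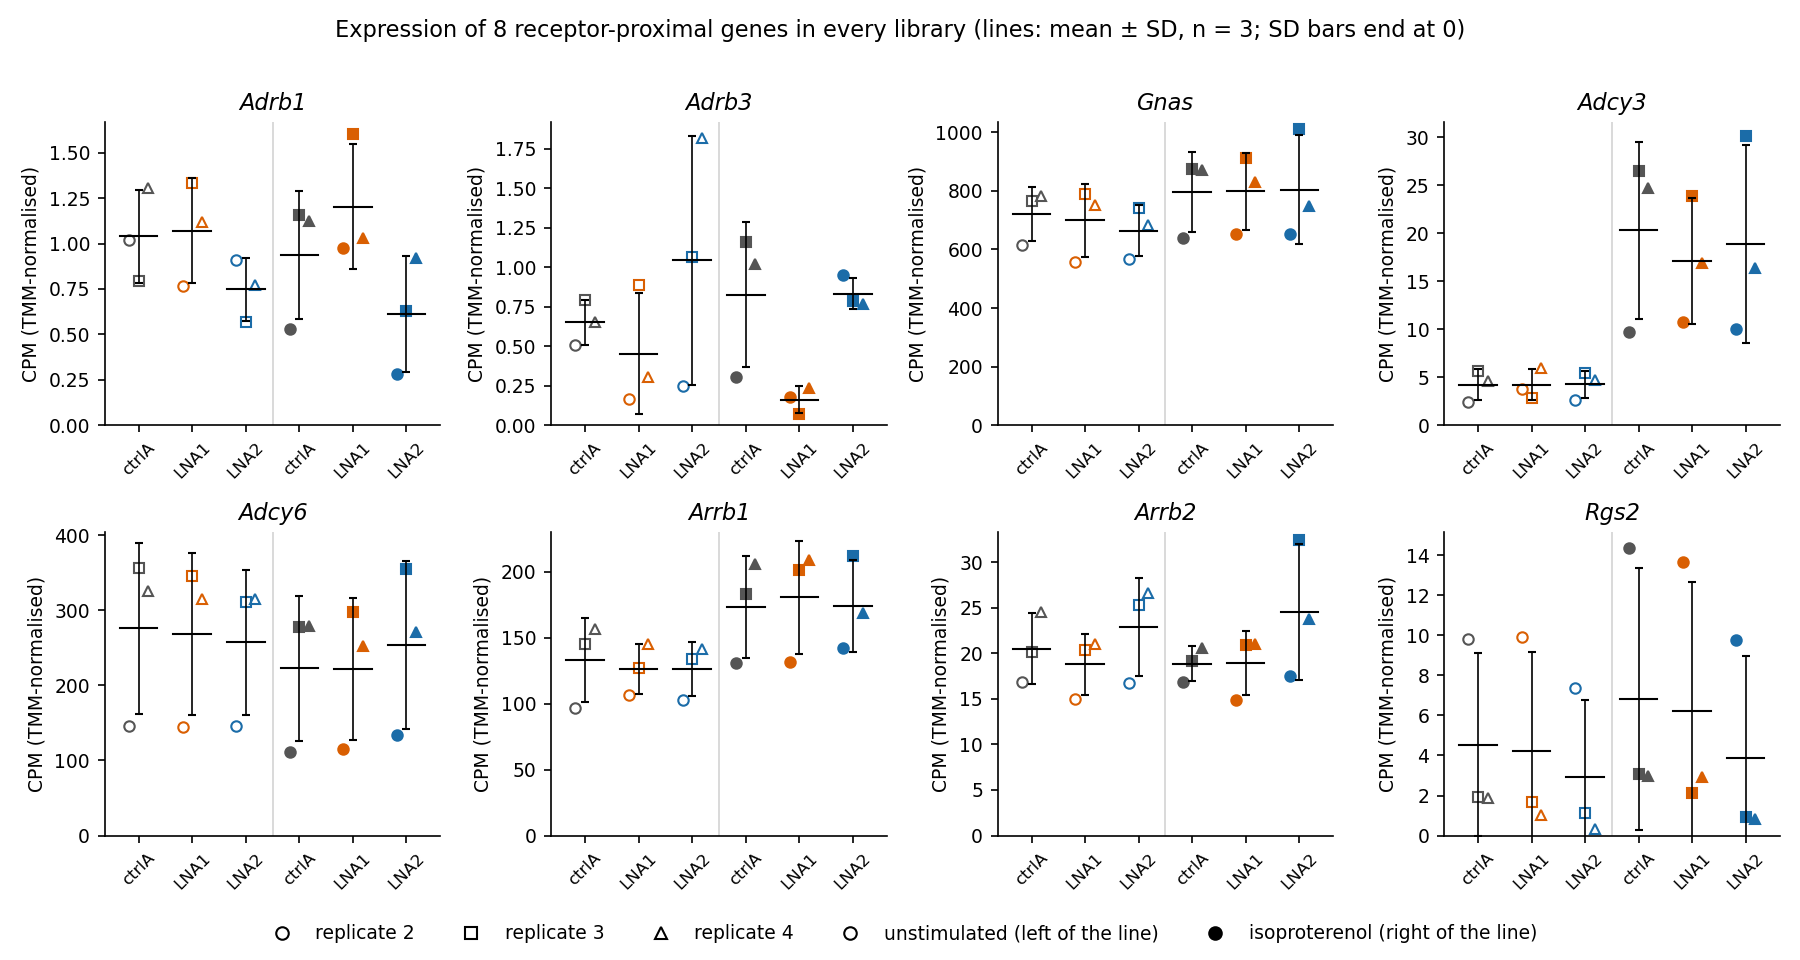
Expression of the 8 genes in every library, as TMM-normalised CPM from 0, with 1 panel per gene; open symbols are unstimulated and filled symbols isoproterenol-treated libraries, symbol shape gives the replicate number, and lines give the mean ± SD of 3. Adcy3 separates by stimulation with every stimulated library at 9.73 CPM or more, while Rgs2 and Adcy6 separate by replicate 2.

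Adcy6 encodes the cyclase that dominated this family (chromosome 15, 98589973 to 98610076 on the minus strand). Its level without stimulation was 146, 356 and 326 CPM with ctrlA, 145, 346 and 315 CPM with LNA1 and 146, 311 and 315 CPM with LNA2, in the order of replicates 2, 3 and 4. With isoproterenol it was 111, 277 and 279 CPM, 116, 297 and 252 CPM, and 135, 355 and 271 CPM. Replicate 2 was lowest in every group, and stimulated and unstimulated libraries overlapped, although 8 of 9 pairs were lower after isoproterenol. The exception was LNA2 in replicate 3. The fitted log2 fold change was -0.20 ± 0.29 (edgeR, adjusted p = 0.885). Under the block it was -0.22 ± 0.04 and passed the p limit (adjusted p = 0.00149) but not the fold limit. Gm29331, an antisense gene that overlaps Adcy6 over 605 bases, was called as lower with the block (-0.55, adjusted p = 0.0440) and not without it (adjusted p = 0.340), and its part in the value of Adcy6 was not tested.

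The balance of the 10 adenylyl cyclase genes shifted with stimulation. Adcy3 made up 1.52 ± 0.387% of their summed level per kb in unstimulated and 6.90 ± 0.905% in stimulated libraries (SD, n = 9 each), with ranges of 0.748 to 2.22% and 5.45 to 8.20% that did not overlap. Adcy6 made up 83.7 ± 2.96% and 78.4 ± 2.77%, with overlapping ranges of 77.4 to 86.8% and 73.5 to 83.1%. Adcy6 therefore remained the most abundant cyclase message in both conditions.

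Arrb1 (chromosome 7, 99535466 to 99606771, plus strand), 1 of the 2 β-arrestin genes, was at 96.95, 145 and 157 CPM in unstimulated ctrlA libraries, at 107, 127 and 145 CPM with LNA1 and at 103, 134 and 141 CPM with LNA2. After isoproterenol the values were 131, 183 and 206 CPM, 131, 201 and 209 CPM, and 142, 212 and 169 CPM. The 2 conditions overlapped because replicate 2 was low throughout, but within the pairs Arrb1 was higher in 9 of 9, by 1.19-fold to 1.59-fold. The log2 fold change was 0.46 ± 0.14 (95% interval 0.16 to 0.75; edgeR, adjusted p = 0.0855). The block gave 0.45 ± 0.05 with an adjusted p of 1.01e-05, so Arrb1 passed the p limit there but stayed under the fold limit of 0.5.

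Arrb2 (chromosome 11, 70432635 to 70440828, plus strand), the other β-arrestin gene, did not follow Arrb1. Its mean was 20.7 ± 4.11 CPM without and 20.8 ± 5.10 CPM with isoproterenol (n = 9 each), it was higher in 4 of 9 pairs, and its log2 fold change was -0.00 (95% interval -0.30 to 0.30; edgeR, adjusted p = 1.00). Arrb1 accounted for 61.3 ± 2.77% of the summed β-arrestin level per kb in unstimulated and 68.4 ± 3.39% in stimulated libraries, with ranges of 57.4 to 64.7% and 62.4 to 71.8% that overlapped slightly.

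**Figure D3:**
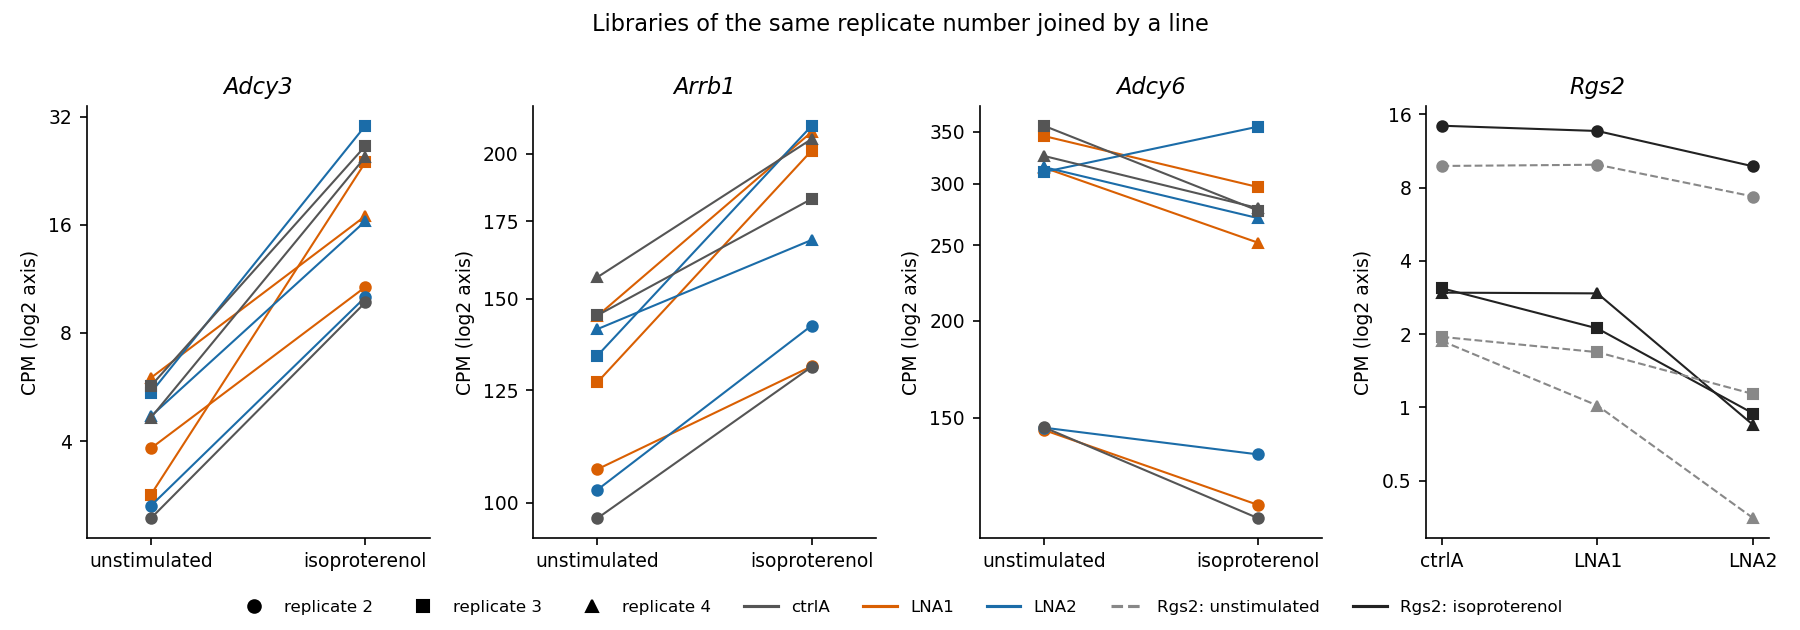
Values of Adcy3, Arrb1 and Adcy6 without and with isoproterenol and of Rgs2 across the 3 LNAs, as CPM on a log2 axis; a line joins libraries of the same replicate number, with colour for the LNA in the first 3 panels and line type for stimulation in the last. Adcy3 and Arrb1 go up in 9 of 9 pairs, Adcy6 goes down in 8 of 9, and Rgs2 is lower with LNA2 than with ctrlA in 6 of 6.

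Gnas (chromosome 2, 174284320 to 174346744, plus strand) ranged from 557 to 791 CPM without and from 638 to 1011 CPM with isoproterenol. The ranges overlapped, and the stimulated library was higher in 9 of 9 pairs, by 1.04-fold to 1.36-fold. The log2 fold change was 0.20 ± 0.12 (edgeR, adjusted p = 0.521), and 0.20 ± 0.04 with the replicate block (adjusted p = 0.00339), again under the fold limit. The locus produces 24 annotated transcripts from several promoters, and the gene count does not separate the Gsα message from the others. The gene Gm20721 shares 1469 exon bases on the opposite strand and was at 59.1 ± 14.5 CPM without and 75.6 ± 20.6 CPM with isoproterenol. Its log2 fold change was 0.36 (edgeR, adjusted p = 0.404), and 0.35 with the replicate block (adjusted p = 0.0289), and its part in the value of Gnas was not tested. The antisense gene Gnasas1, named Nespas in the annotation, overlaps Gnas over 988 exon bases and had 18 to 45 counts per library, at 2.45 ± 0.63 CPM without and 2.42 ± 0.55 CPM with isoproterenol (SD, n = 9 each). Its log2 fold change was -0.04 ± 0.16 (edgeR, adjusted p = 0.977), and its part in the value of Gnas was not tested.

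Rgs2 (chromosome 1, 143999338 to 144004161, minus strand) was at 9.81, 1.95 and 1.88 CPM in the unstimulated ctrlA libraries of replicates 2, 3 and 4. With LNA1 it was at 9.93, 1.69 and 1.02 CPM and with LNA2 at 7.35, 1.13 and 0.350 CPM. The stimulated values were 14.4, 3.09 and 2.96 CPM for ctrlA, 13.7, 2.11 and 2.94 CPM for LNA1 and 9.78, 0.943 and 0.846 CPM for LNA2. Replicate 2 lay between 7.35 and 14.4 CPM and replicates 3 and 4 between 0.350 and 3.09 CPM, so the libraries separated by replicate number without overlap. Rgs2 was higher after isoproterenol in 8 of 9 pairs, with a median of 1.46-fold, and lower in LNA2 of replicate 3. Its log2 fold change was 0.50 ± 0.71 (edgeR, adjusted p = 0.884), and leaving out 1 library moved it from -0.17 (without stimulated LNA2 replicate 2) to 1.15 (without unstimulated LNA2 replicate 2). With the replicate block Rgs2 rose by 0.56 ± 0.17 (adjusted p = 0.0266). That call was lost in 5 of 18 fits that each left out 1 library, namely unstimulated ctrlA replicate 2, stimulated LNA2 replicate 2, stimulated ctrlA replicate 3, stimulated LNA1 replicate 4 and unstimulated LNA2 replicate 4. Without LNA2 replicate 2 under isoproterenol the adjusted p was 0.149. Without all replicate 2 libraries the blocked log2 fold change was 0.61 (adjusted p = 0.169).

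The receptors themselves gave few counts. Adrb1 (chromosome 19, 56722199 to 56733113, plus strand), the β1 receptor gene, had 3 to 22 counts per library and Adrb3 (chromosome 8, 27225776 to 27250616, minus strand), the β3 receptor gene that is typical of adipocytes, had 1 to 26. Adrb1 was at 0.953 ± 0.261 CPM without and 0.918 ± 0.390 CPM with isoproterenol (log2 fold change -0.08, 95% interval -0.59 to 0.43; edgeR, adjusted p = 0.966). Adrb3 was at 0.717 ± 0.513 and 0.608 ± 0.411 CPM (log2 fold change -0.48, 95% interval -1.34 to 0.38; adjusted p = 0.715). Both pairs of ranges overlapped, and the intervals leave room for changes past the fold limit in at least 1 direction, so a response of the receptors was not detectable at this depth.

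To show where the genes called with isoproterenol start, the 300-base windows around their first transcription starts in RefSeq (GRCm38.p6, 250 bases before to 50 after the start) are printed for Adcy3 and Rgs2. RefSeq windows were at hand for 4 of the 8 genes (2 for Adcy3, 4 for Gnas and 1 each for Adrb1 and Rgs2), and none were matched for Adrb3, Adcy6, Arrb1 and Arrb2. They were searched on both strands for the cyclic AMP response element TGACGTCA and for its core TGACG, which overlaps it. Capitals mark the core, read as TGACG or, on the other strand, CGTCA. The Adcy3 window is chr12:4133147-4133446 on the plus strand and the Rgs2 window chr1:144004100-144004399 on the minus strand.

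Adcy3: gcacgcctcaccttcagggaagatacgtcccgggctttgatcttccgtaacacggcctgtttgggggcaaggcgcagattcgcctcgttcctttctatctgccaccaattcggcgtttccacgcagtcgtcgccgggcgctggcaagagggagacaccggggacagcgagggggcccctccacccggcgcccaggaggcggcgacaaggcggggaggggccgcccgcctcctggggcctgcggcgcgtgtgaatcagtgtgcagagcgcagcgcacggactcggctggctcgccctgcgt
Rgs2: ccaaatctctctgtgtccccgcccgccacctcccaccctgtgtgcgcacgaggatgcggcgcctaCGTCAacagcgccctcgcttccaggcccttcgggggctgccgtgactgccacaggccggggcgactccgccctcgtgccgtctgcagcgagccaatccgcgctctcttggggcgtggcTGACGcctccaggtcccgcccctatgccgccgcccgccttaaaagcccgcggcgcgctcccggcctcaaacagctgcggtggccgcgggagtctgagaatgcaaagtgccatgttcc

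The whole element was in 0 of the 8 windows, compared with 1.79% of 32851 RefSeq promoter windows of the same length. The core was in 5 of the 8 windows, compared with 20.81% of all windows. Rgs2 had it at positions -185 and -67 from the start and Adrb1 at -90, 3 of the 4 Gnas windows had 1 copy each, of which 2 windows overlap and share it, and neither Adcy3 window had it. These are matches of letters and were not tested as binding sites.

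The comparison of LNA1 with ctrlA, averaged over stimulation (6 libraries against 6), called 0 of the 8 genes in edgeR, with 1 at an unadjusted p below 0.05 and 0 called by DESeq2, while 0.442% of all genes were called. With the replicate block 0 were called as well, against 2.43% of all genes. The gene with the small p was Adrb3. Its level with ctrlA was 0.511, 0.794 and 0.653 CPM in unstimulated and 0.304, 1.16 and 1.02 CPM in stimulated cells. With LNA1 it was 0.170, 0.887 and 0.305 CPM in unstimulated and 0.177, 0.0727 and 0.238 CPM in stimulated cells. The stimulated groups did not overlap, as was so for 7.53% of all genes in that comparison, and the unstimulated groups did. The averaged log2 fold change was -1.40 ± 0.52 (95% interval -2.50 to -0.29; edgeR, unadjusted p = 0.0165, adjusted p = 0.523), and with the block the adjusted p was 0.0704. It was below 0.05 in the blocked fits without unstimulated LNA1 replicate 3 (0.0444) and without stimulated LNA2 replicate 3 (0.0473).

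With LNA2 against ctrlA, also averaged over stimulation, 0 of the 8 genes were called without the block, with 0 at an unadjusted p below 0.05 and 0 called by DESeq2, while 1.42% of all genes were called. Rgs2, whose values are given above, was lower with LNA2 in 6 of 6 pairs, at 0.187-fold to 0.749-fold of the ctrlA value. Its log2 fold change was -0.76 ± 0.87 (edgeR, adjusted p = 0.930), from -1.80 without stimulated LNA2 replicate 2 to -0.14 without unstimulated ctrlA replicate 2. In the blocked fit Rgs2 fell by 0.98 on the log2 scale (95% interval -1.43 to -0.52, SE 0.21; adjusted p = 0.00428) and was the only one of the 8 genes called, against 5.53% of all genes. The call was kept in 18 of 18 fits that each left out 1 library, with a highest adjusted p of 0.0134 and log2 fold changes of -1.22 to -0.84. The marker sums by LNA given above moved with the same comparison, and their part in it was not tested. Without all replicate 2 libraries the log2 fold change was -1.53 (edgeR, adjusted p = 0.0160; 0.0155 with the block). By stimulation, the blocked estimates were -0.84 in unstimulated (adjusted p = 0.146) and -1.12 in stimulated cells (adjusted p = 0.0209), and the interaction did not pass the test (-0.27, 95% interval -1.19 to 0.64, adjusted p = 0.893). The stimulated call was lost without ctrlA replicate 3, LNA2 replicate 3 or ctrlA replicate 4 of the stimulated groups, with a highest adjusted p of 0.0923, and also without all replicate 2 libraries (0.0566). Among the stimulated comparisons 5.51% of all genes were called with the block.

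LNA2 and LNA1 were compared directly, since both target Gm15551. Without the block 0 of the 8 genes were called (edgeR, 2 at an unadjusted p below 0.05, Adrb1 and Adrb3; DESeq2, 0), with 0.923% of all genes called. With the block Adrb3 and Rgs2 were called, against 4.11% of all genes. With LNA2 Adrb3 was at 0.248, 1.06 and 1.82 CPM in unstimulated and 0.949, 0.786 and 0.769 CPM in stimulated cells, higher than with LNA1 in 6 of 6 pairs. The LNA2 values spread most in unstimulated cells, where the groups overlapped, and lay apart from LNA1 in stimulated cells, where the groups did not overlap for Adrb3 or, with LNA2 lower, for Adrb1, against 7.34% of all genes. The log2 fold change was 1.75 ± 0.51 (95% interval 0.66 to 2.84; edgeR, adjusted p = 0.173), or 1.75 ± 0.45 with the block (adjusted p = 0.0154). The blocked call was lost without stimulated LNA1 replicate 3 or unstimulated LNA2 replicate 4, where the highest adjusted p was 0.0641, and it was also lost without all replicate 2 libraries (adjusted p = 0.0505). Adrb3 had between 1 and 26 counts in each library, and its exons overlap those of Gm45470 on the opposite strand over 839 bases. Gm45470 had 1 to 11 counts and was not tested. It was higher with LNA2 than with LNA1 in 4 of 6 pairs, and in 3 of 3 under isoproterenol, where its ranges were 0.190 to 0.307 and 0.0887 to 0.159 CPM. Its part in the value of Adrb3 was not tested. Rgs2 was lower with LNA2 than with LNA1 by 0.63 on the log2 scale without the block (adjusted p = 1.00), a value that went from -1.66 without stimulated LNA2 replicate 2 to 0.19 without unstimulated LNA1 replicate 2, and to 0.01 without stimulated LNA1 replicate 2. In the blocked fit it fell by 0.77 (log2, SE 0.22), with an adjusted p of 0.0253. That call was lost without unstimulated LNA1 replicate 2, unstimulated LNA1 replicate 3 or stimulated LNA1 replicate 4, where the highest adjusted p was 0.0994, and without all replicate 2 libraries (0.0658).

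Adrb1 was lower with LNA2 than with ctrlA in 6 of 6 pairs, and Arrb2 was higher with LNA2 than with LNA1 in 6 of 6. Neither was called. The log2 fold change of Adrb1 was -0.53 ± 0.30 (edgeR, adjusted p = 0.623; 0.194 with the block). Adrb1 went from 0.989 ± 0.281 CPM with ctrlA to 0.680 ± 0.241 CPM with LNA2 (n = 6 each). Arrb2 was at 19.7 ± 2.89 CPM with ctrlA, 18.9 ± 3.07 with LNA1 and 23.7 ± 5.89 with LNA2. Its log2 fold change for LNA2 against LNA1 was 0.33 ± 0.17 (edgeR, adjusted p = 0.649), and with the block 0.32 ± 0.08 (adjusted p = 0.0175), under the fold limit. Gnas, Adcy3, Adcy6 and Arrb1 had averaged log2 fold changes between -0.13 and 0.08 for the 3 comparisons of LNAs, with adjusted p of 0.985 or more in edgeR. Their blocked 95% intervals stayed inside -0.5 to 0.5.

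**Figure D4:**
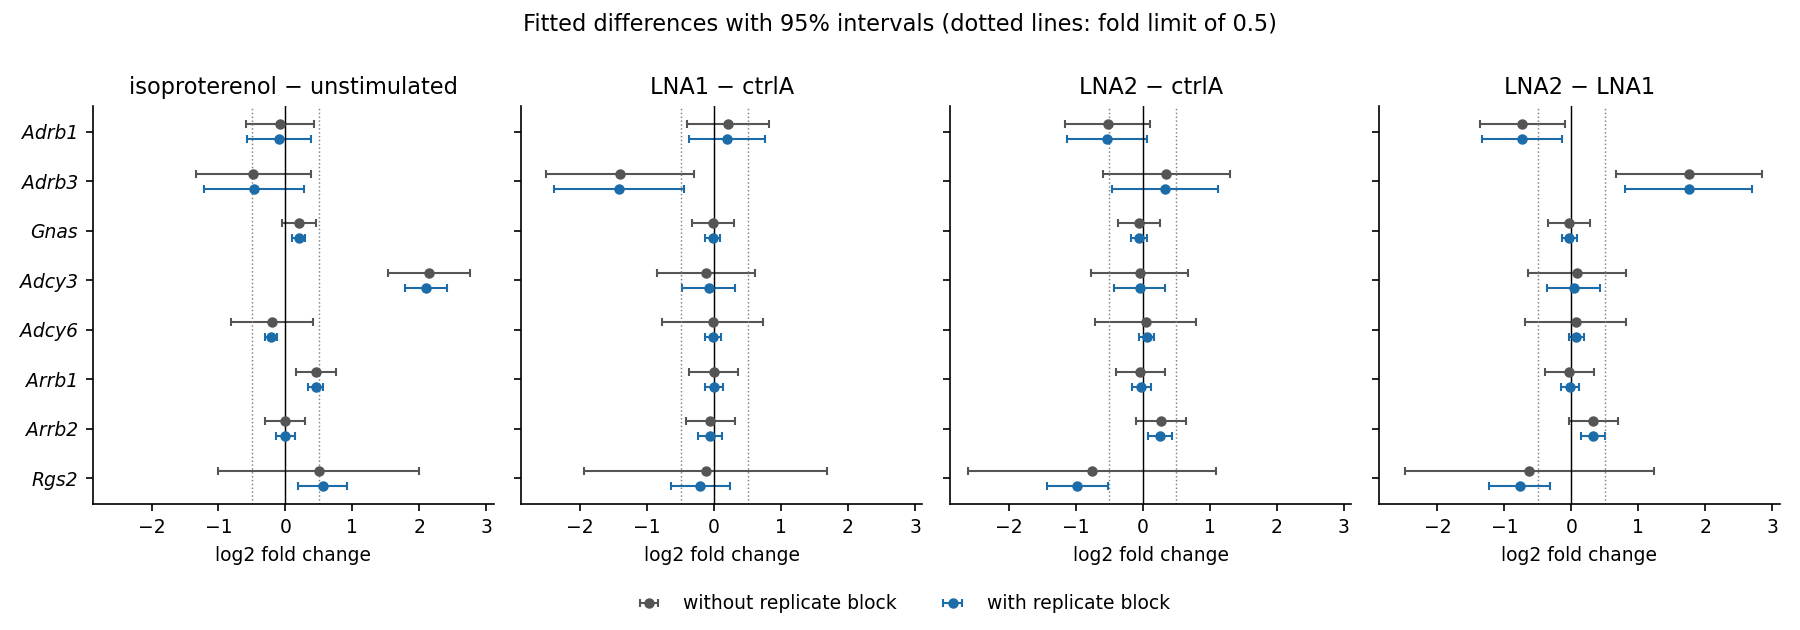
Fitted log2 fold changes of the 8 genes with 95% intervals for isoproterenol and for the 3 comparisons of LNAs, without (grey) and with (blue) the replicate block; dotted lines mark the fold limit of 0.5. Adcy3 stands at 2.14 with isoproterenol, Rgs2 at -0.76 for LNA2 against ctrlA with an interval that narrows with the block, and Adrb3 at 1.75 for LNA2 against LNA1.

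Separately within each stimulation state, 0 of the 8 genes were called for LNA1 or LNA2 against ctrlA without the block (edgeR, with 1 unadjusted p below 0.05, Adrb3 for LNA1 under isoproterenol; DESeq2, 0). The shares of all genes called were 0.0% and 0.0134% for LNA1 and 0.194% and 0.207% for LNA2, in unstimulated and stimulated cells. With the block the shares were 0.602% and 1.45% for LNA1, with 0 members, and 2.79% and 5.51% for LNA2, with 0 and 1. In the interactions of LNA1 and of LNA2 with isoproterenol, 0 of 14949 genes passed in edgeR. Of all genes, 105 and 116 had an unadjusted p below 0.05 and DESeq2 called 2 in each, 0 of them members. The joint test of the 6 groups, with a limit of 0.001 for the adjusted p, called 0 of the 8 genes and 0.455% of all genes. Adcy3 had an adjusted p of 0.0102 there and was the 1 member with an unadjusted p below 0.05, and DESeq2 called 1. With the block Adcy3 and Arrb1 (adjusted p = 0.000329) were called in the joint test, against 8.93% of all genes. Adcy3 stayed called in 18 of 18 such fits that left out 1 library, whereas Arrb1 was lost in 6, those without unstimulated ctrlA replicate 3, unstimulated LNA1 replicate 4, stimulated LNA1 replicate 3 or 4 and unstimulated LNA2 replicate 3 or 4, with a highest adjusted p of 0.0014. Without all replicate 2 libraries neither gene was called in the blocked joint test (Adcy3, adjusted p = 0.00134; Arrb1, 0.0210).

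The 8 genes differed in what their variation followed. Of the sum of squares of log2 CPM over the 18 libraries, stimulation took 78.9% for Adcy3 and 43.4% for Arrb1, compared with a median of 4.3% over all genes tested. The replicate number took 94.0% for Adcy6, 79.4% for Rgs2, 71.5% for Gnas and 61.9% for Arrb2, compared with a median of 49.4%. The LNA took 43.7% for Adrb3, 35.8% for Adrb1 and 21.0% for Arrb2, compared with a median of 8.3%. Adcy6 and Rgs2 stood at opposite ends in replicate 2. Adcy6 was at 111 to 146 CPM in replicate 2 and 252 to 356 CPM in replicates 3 and 4, while Rgs2 was 7.35 to 14.4 and 0.350 to 3.09 CPM. Only the replicate numbers separate these libraries in the labels. The adipocyte and preadipocyte sums given above moved with them too, and their part in these values was not tested.

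As a description over the 18 libraries, with the mean of each replicate number removed, Pearson's r of log2 CPM was 0.949 between Adcy3 and Arrb1, 0.876 between Gnas and Arrb1, 0.805 between Gnas and Adcy3 and -0.672 between Adcy3 and Adcy6. With the replicate means left in, these values were 0.884, 0.893, 0.713 and 0.210, so the sign for Adcy3 and Adcy6 turned. The libraries share stimulation and LNA, so these values also hold the group differences, and no p is given. Among 13144 genes searched, the most similar profile was that of Itga5 (an integrin α subunit, r = 0.970) for Adcy3, Ucp2 (an uncoupling protein homologue, 0.977) for Arrb1, Aacs (acetoacetyl-CoA synthetase, 0.959) for Adcy6, Snx8 (a sorting nexin, 0.941) for Arrb2 and Golm1 (a Golgi membrane protein, 0.922) for Rgs2. For the sparse receptors the nearest were AC125101.1 for Adrb1 (0.836) and Fbxo36 for Adrb3 (0.870), where r without removal of the replicate means was 0.725 and 0.120.

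Other genes of the receptor-proximal machinery were read from a list of 66 adrenergic receptors, G protein subunits, adenylyl cyclases, receptor kinases, RGS proteins, Gα chaperones and cyclic AMP-activated exchange factors, of which 41 were tested. With isoproterenol 1 was called as higher and 3 as lower, against 3.2% of all genes, and their median log2 fold change was 0.06 compared with -0.00 over all genes. Rgs9, another RGS gene, rose by 1.38 on the log2 scale (edgeR, adjusted p = 0.00333) from 0.290 ± 0.165 to 0.676 ± 0.182 CPM, with 1 to 12 counts per library. Gng2, a G protein γ subunit gene, fell by 0.97 (adjusted p = 0.00729) from 5.73 ± 1.31 to 2.93 ± 0.952 CPM. The cyclase gene Adcy5 fell by 0.65 (adjusted p = 0.0288) and Rgs3 fell by 0.51 (adjusted p = 0.0158).

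When the block was used, 4 of the 41 were higher and 4 lower with isoproterenol, against 7.0% of all genes called, the additional genes being Adra2a (1.22, an α2 receptor that couples to the inhibitory G protein), Adcy7 (0.66), Rgs17 (0.57) and Adra1d (-0.55, an α1 receptor). The receptor kinase gene Grk2 had a log2 fold change of 0.12 (edgeR, adjusted p = 0.873; 0.206 with the block) and the inhibitory subunit gene Gnai2 of 0.05 (adjusted p = 0.951; 0.698 with the block), so that neither was called. For the LNAs, Adcy5 was the single gene of the list called without the block, for LNA2 against LNA1 (-1.32, edgeR, adjusted p = 0.00366). Its level was 4.30 ± 1.10 CPM with ctrlA, 7.59 ± 3.45 with LNA1 and 2.86 ± 0.783 with LNA2 (n = 6 each). With the block Adcy5 was higher with LNA1 (0.75, adjusted p = 0.0135) and lower with LNA2 (-0.56, adjusted p = 0.0431) than with ctrlA. These 2 comparisons share the ctrlA libraries. In all, the block gave 2 higher and 0 lower genes of the list for LNA1 against ctrlA (2.43% of all genes called), 3 higher and 1 lower for LNA2 against ctrlA (5.53%) and 2 higher and 4 lower for LNA2 against LNA1 (4.11%). Among them was Rapgef3, a cyclic AMP-activated exchange factor (0.90 for LNA2 against ctrlA, adjusted p = 0.00473).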

How the data were processed

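Polyadenylated RNA of 18 wt1-SAM libraries was analysed. The authors trimmed reads with cutadapt and quantified them with salmon on Gencode M22 (GRCm38), versions not given in the sources used here. The deposited values are estimated counts per gene, given as whole numbers and unfiltered. How transcripts were summed and whether strand was used were not given, so genes sharing sequence or overlapping on the other strand carry uncertain counts. Intervals cover the spread in the model, and counting error limits genes of few counts.

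Counts were analysed in edgeR 4.0.16 (R 4.3.3) after filterByExpr (minimum count 10, total 15) and TMM scaling, with 1 quasi-likelihood model of the 6 groups and two-sided tests adjusted by Benjamini-Hochberg over 14949 genes. A gene was called at an adjusted p below 0.05 and an absolute log2 fold change above 0.5, the numbers being those of the study, which applied its limit of 0.05 to s-values of shrunken fold changes and not to an adjusted p. Log2 CPM for correlations and sums of squares had a prior count of 2. The deviations of same-numbered libraries from their group means correlated in all 45 pairs (r 0.24 to 0.722, median 0.432). Other pairs gave -0.596 to 0.404, partly negative because deviations within a group cancel. Replicate 2 stood apart, with negative r in every pair with 3 or 4. Pairs of replicate 3 with 4 gave 0.065 to 0.404, overlapping 0.252 to 0.505 within replicate 3 and 0.24 to 0.47 within replicate 4. The number thus sets replicate 2 apart, and pairing by the numbers 3 and 4 was not shown. It was used as a block where it changed a call. Alternatives were the block, DESeq2 1.42.0 with and without it, RLE size factors, no filter, leaving out each library and leaving out replicate 2. Leaving libraries out of the blocked fit was added after seeing the data.

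On simulated counts for the averaged isoproterenol comparison (14949 genes), 34%, 68%, 90% and 82% of genes changed 1.5, 2, 3 and 4-fold were recovered, and 4%, 30%, 60% and 44% for ctrlA alone. Each fold used a different 50 genes, so recovery need not rise with the fold. The simulated counts held no replicate effect, unlike the real libraries, and were fitted without the block, so recovery in the blocked fit was not examined. Coordinates and exons are from GENCODE M21 (GRCm38), counted from 1. All 8 genes, genes of the list that were called, a few levels of the same families, and the checks Ucp1 and Gm15551 are named. Grk2, Gnai2 and the genes overlapping a member were named after their values were seen. Members and lists were chosen with earlier results of these data known. LNA sequences come from the study's supplement. Some genes of the families described are not reported here.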

Additional observations from a re-analysis of the deposited data

How the results depend on the processing

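The number of the 8 genes called moved with the handling of the replicate number. For isoproterenol averaged over the LNAs it was 1, and 2 with the replicate block in edgeR or DESeq2. Within ctrlA, LNA1 and LNA2 it was 0, and 1 each with the block, in DESeq2 without a block, without a filter and without replicate 2, except that LNA1 gave 2 without replicate 2 in either fit and in DESeq2 with the block. LNA2 against ctrlA went from 0 to 1 with the block in both tools and without replicate 2 in both fits. LNA2 against LNA1 went from 0 to 2 with the block in both tools and to 1 without replicate 2 and no block, and LNA2 against ctrlA under isoproterenol to 1 with the block in both tools. The joint test went from 0 to 2 with the block, 1 in DESeq2, 4 in DESeq2 with the block and 1 without a filter. RLE size factors moved no count. The block changed no other call.

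Leaving out 1 library gave 0 to 1 for isoproterenol in ctrlA and moved no other count. In the blocked fit the ranges were 1 to 2 for isoproterenol averaged, in LNA1, in LNA2 and for LNA2 against LNA1, 0 to 1 for LNA1 against ctrlA and LNA2 against ctrlA under isoproterenol, 1 for LNA2 against ctrlA, and 1 to 3 for the joint test.

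Some values that were not called changed sign. With isoproterenol Adrb1 was 0.14 without replicate 2 (0.15 with the block), and Arrb2 was 0.0018 in DESeq2, 0.0035 in DESeq2 with the block, 0.0013 with RLE and 0.0011 without a filter. Leaving out 1 library, over both fits, gave -0.219 to 0.0297 for Adrb1 and -0.0856 to 0.0612 for Arrb2 with isoproterenol. For Rgs2 the unblocked fit gave -0.17 to 1.15 with isoproterenol and -1.66 to 0.19 in LNA2 against LNA1, and the blocked fit kept the sign (0.39 to 0.69 and -1.01 to -0.64). Gnas, Adcy3, Adcy6 and Arrb1 lay between -0.30 and 0.25 for the comparisons of LNAs over every setting. The cause was not tested. Depth limits Adrb1 and Adrb3.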
